A study of Mus musculus with 10 samples.

Results

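The retinol carriers and the enzymes and binding proteins of retinoic acid metabolism were described in the retinal pigment epithelium (RPE), the cell layer behind the photoreceptors, of mice with and without added Nrf2. The set held 10 genes chosen by name, and all 10 were listed among the 47729 genes of the count table. RNA had been taken from both eyes of 5 CD1 mice, an outbred strain that served as wild type, at postnatal day 40. In each mouse the Nrf2 eye had been injected with AAV-Best1-Nrf2, which carries the human Nrf2 cDNA in an AAV8 capsid, together with AAV-Best1-GFP, and the GFP control eye of the same mouse had received AAV-Best1-GFP alone, giving 5 Nrf2 and 5 GFP control libraries. Both vectors used the human Best1 promoter, which drives expression in the RPE. The Nrf2 eye therefore also received a second vector, and the effect of Nrf2 cannot be told apart from that of the added vector load. The RNA was released from the cleaned eyecup after the retina had been lifted off, without sorting of cells, and was amplified before sequencing.

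Retinol travels in blood bound to retinol-binding protein, which itself rides on transthyretin, and the RPE takes it up through the receptor STRA6. Inside the cell most retinol is esterified and used for the visual cycle. A part can be oxidised to retinaldehyde and then, irreversibly, to retinoic acid, a ligand of nuclear receptors that binding proteins carry and CYP26 enzymes degrade. Nrf2 is a transcription factor best known for driving antioxidant and detoxifying genes.

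Library totals ran from 12298404 to 27310638 counts and were higher in the Nrf2 eye in 3 of 5 mice (exact sign-flip permutation test, two-sided, p = 0.75). With 5 mice that test allows no p below 0.0625 and cannot reach 0.05. A count of 3, the limit that a count of 0 allows, corresponded to between 0.110 and 0.244 CPM, counts scaled to a common library size, in the different libraries. Nfe2l2, the mouse gene for Nrf2, was 88.7 ± 12.7 CPM (SD, n = 5) in control and 353 ± 53.6 in Nrf2 eyes and higher in 5 of 5 mice. Reads of the human cDNA and of the mouse gene cannot be told apart in these counts. The summed level of 12 RPE markers ran from 15779 to 26051 CPM in control and from 4867 to 10167 CPM in Nrf2 eyes, lower in 5 of 5 mice. Of these 12 markers 5 passed the test, all lower (Rpe65, Rlbp1, Rgr, Slc16a8 and Otx2). The pigment gene Tyr averaged 157 CPM in control and 283 CPM in Nrf2 eyes (adjusted p = 0.338) and Dct 2091 and 1993 CPM (adjusted p = 0.981), and Best1 itself stayed between 0.119 and 1.503 CPM in all 10 libraries. Fewer RPE cells and less RNA per cell cannot be told apart in such bulk samples, nor can either be told from a change of single genes within the cells. The summed level of 7 macrophage and microglia markers ran from 144 to 271 CPM in control and from 278 to 1470 CPM in Nrf2 eyes, higher in 5 of 5 mice. Csf1r made up most of the control sum and did not pass the test (196 CPM in control and 142 CPM in Nrf2 eyes, adjusted p = 0.301), while the other 6 markers rose with log2 fold changes of 3.92 (Cx3cr1) to 5.69 (Trem2). Cells of the ocular surface also contributed: 9 keratin and other surface epithelium genes, listed after the values had been seen, made up 1.28% to 5.62% of the counts, and the corneal keratin Krt12 alone ran from 3.46 to 29094 CPM. Rod markers were highest in both eyes of mouse 2, at 17542 CPM in the control and 6782 CPM in the Nrf2 eye, against 36.2 to 2578 CPM in the other 8 libraries.

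The question was how RPE expression of Nrf2 altered each gene between the eyes of a mouse. Of the 10 genes, 8 had enough counts to be tested, 1 was higher (Rbp4), 1 was lower (Dhrs3), and 6 did not pass the test (edgeR quasi-likelihood test with the mouse as block, Benjamini-Hochberg adjusted p under 0.05 over all 16362 tested genes). Across all tested genes 6.33% passed, 3.60% higher and 2.73% lower in Nrf2 eyes. The median log2 fold change of the 8 tested genes was 0.20, against -0.01 for all tested genes. The CPM ranges of the eyes did not overlap for 1 of the 8 genes, against 6.28% of all tested genes, and the difference had the same direction in all mice for 2 of the 8, against 19.5% of all tested genes.

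**Figure D1:**
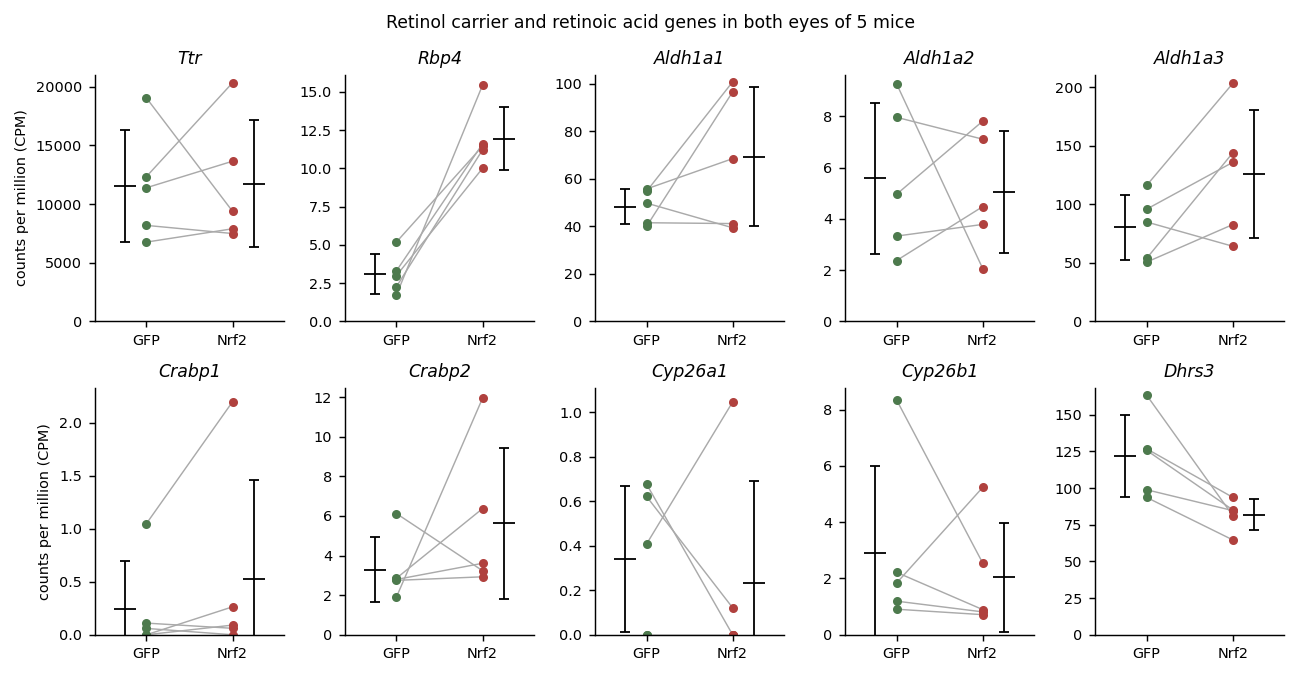
CPM of the 10 genes (vertical axes, linear from 0, each with its own scale) in the GFP control and Nrf2 eyes of 5 mice, with grey lines joining the eyes of a mouse and black bars giving the mean ± SD. Rbp4 was higher in every Nrf2 eye without overlap (10.02 to 15.5 against 1.75 to 5.196 CPM), Dhrs3 was lower within every mouse, and the lines of the other genes crossed or were set by few libraries.

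Among the carriers, Rbp4 rose and Ttr did not pass the test. Rbp4 (ENSMUSG00000024990, mm10 chromosome 19, 38116629 to 38125281, minus strand) encodes the plasma retinol-binding protein. It stood at 3.32, 2.28, 1.75, 5.196 and 3.00 CPM in the GFP eyes (mice 1 to 5). In the Nrf2 eyes of the same mice it stood at 11.6, 11.2, 15.5, 11.5 and 10.02 CPM. Every Nrf2 eye was above every control eye. The means were 3.11 ± 1.32 and 11.96 ± 2.06 CPM (SD, n = 5), a log2 fold change of 1.99 (SE 0.33, 3.96-fold, edgeR adjusted p = 0.0117). The within-mouse log2 differences ran from 1.13 in mouse 4 to 3.07 in mouse 3. The counts behind these values were low, from 25 to 87 in control and from 141 to 411 in Nrf2 libraries.

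Ttr (ENSMUSG00000061808, mm10 chromosome 18, 20665280 to 20674321, plus strand) encodes transthyretin, the partner of the plasma retinol-binding protein and a carrier of thyroxine. It was by far the most abundant of the 10 genes, with 115364 to 540805 counts in a library. Its level was 11391, 8184, 12343, 19035 and 6761 CPM in the GFP eyes (mice 1 to 5). It was 13651, 7491, 20337, 9380 and 7897 CPM in their Nrf2 eyes. The ranges overlapped almost fully, with the highest control value in mouse 4 and the highest Nrf2 value in mouse 3. The log2 fold change was 0.00 (SE 0.29, edgeR adjusted p = 0.998), with 3 of 5 mice higher and within-mouse log2 differences from -1.02 to 0.72. Ttr is also made by other epithelia of the eye, and 4 ciliary epithelium markers summed to between 58.8 and 168 CPM, whose part in the level was not tested. Per kilobase of exon, the level of Ttr was 4532 ± 2048 times that of Rbp4 in control and 1079 ± 314 times in Nrf2 eyes, lower in 5 of 5 mice.

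Some genes followed the pattern of Rbp4 closely. Over the 10 libraries, log2 CPM of Rbp4 had its highest Pearson correlations with Acox2 (r = 0.965), Keap1 (0.961), Rexo2 (0.959), Ftl1-ps1 (0.958) and Nqo1 (0.956), among tested genes with a mean of at least 10 CPM. These correlations share the group difference and the libraries. Over deviations from the group means they were highest for other genes, namely Hspb11 (0.975), Smyd4 (0.918), Helz (0.916), Setd5 (0.909) and Zbtb24 (0.894). For Ttr the nearest genes over the 10 libraries were Tvp23b (0.932), Limch1 (0.931), Cpxm2 (0.911), Frem1 (0.900) and Gsg1l (0.892), none of which passed the test between eyes.

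**Figure D2:**
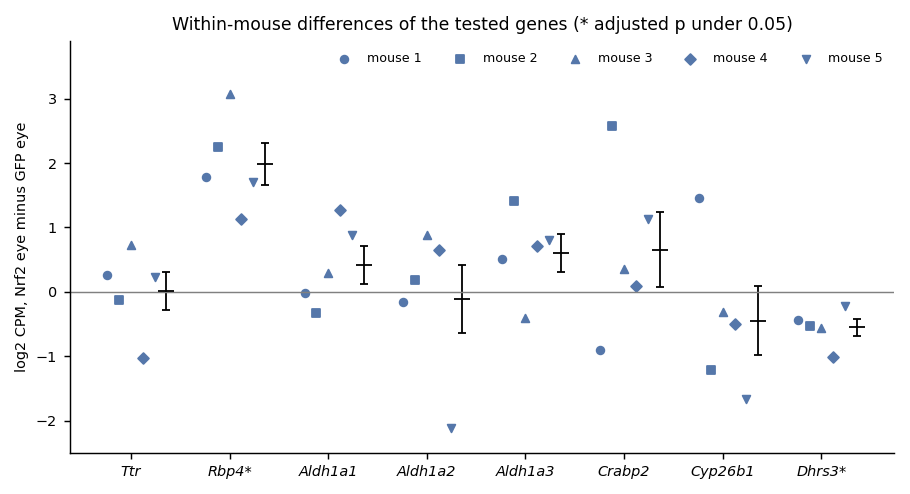
Difference in log2 CPM between the Nrf2 and the GFP control eye of each mouse (symbols) for the 8 tested genes, with the mean and its standard error over 5 mice in black and asterisks at adjusted p under 0.05. Rbp4 lay between 1.13 and 3.07 and Dhrs3 between -1.01 and -0.22, while each of the other 6 genes had mice on both sides of 0.

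Of the 3 retinaldehyde dehydrogenases, which make retinoic acid, 0 passed the edgeR test, 1 (Aldh1a3) had an unadjusted p under 0.05, and DESeq2 called 0. Aldh1a3 (ENSMUSG00000015134, mm10 chromosome 7, 66390890 to 66427517, minus strand) was the most abundant of them. It stood at 95.8, 53.8, 84.9, 50.6 and 116 CPM in the GFP eyes (mice 1 to 5), and at 136, 144, 64.2, 82.7 and 203 CPM in their Nrf2 eyes. The Nrf2 eye was higher in 4 of 5 mice and lower in mouse 3, and the ranges overlapped. The log2 fold change was 0.59 (SE 0.29, edgeR adjusted p = 0.211), and only without mouse 3 did it pass (0.89, adjusted p = 0.0400). The summed surface epithelium markers moved in the same direction as Aldh1a3 in mice 1 to 4 (for example from 22639 to 42714 CPM in mouse 1 and from 30409 to 18873 CPM in mouse 3) and opposite in mouse 5, from 56197 to 28697 CPM. Single markers of the list could move apart within a mouse. In mouse 2 Krt12 fell from 12781 to 6720 CPM and Krt15 rose from 2825 to 8137 CPM. With the mean log2 CPM of these markers as a covariate, in place of their sum, the log2 fold change of Aldh1a3 was 0.39 (edgeR adjusted p = 0.430).

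Aldh1a1 (ENSMUSG00000053279, mm10 chromosome 19, 20492715 to 20643465, plus strand) was 41.6, 49.8, 55.8, 40.02 and 54.8 CPM in the GFP eyes (mice 1 to 5). It was 41.2, 39.4, 68.6, 96.7 and 101 CPM in their Nrf2 eyes. The control eyes lay close together, and the Nrf2 eyes of mice 3, 4 and 5 stood above all of them, those of mice 1 and 2 among or below them. The same 3 Nrf2 eyes held the highest sums of 6 muscle markers, at 325, 211 and 521 CPM against 3.92 to 77.0 CPM in the other 7 libraries. They also held the highest sums of 6 Mueller glia markers, at 1616, 2019 and 1731 CPM against 854 to 1511 CPM. Most of that Mueller glia sum was Dkk3 (1520, 1900 and 1631 CPM in these 3 eyes). The other Mueller glia markers were each highest in an eye of mouse 2 instead. The part of muscle or Mueller glia in the level of Aldh1a1 was not tested. The log2 fold change was 0.40 (SE 0.29, edgeR adjusted p = 0.398), with 3 of 5 mice higher, and ran from 0.24 without mouse 4 to 0.63 without mouse 2. Aldh1a2 (ENSMUSG00000013584, mm10 chromosome 9, 71215789 to 71296243, plus strand) was scarce, at 2.37 to 9.26 CPM in control and 2.06 to 7.81 CPM in Nrf2 eyes (log2 fold change -0.08, SE 0.53, adjusted p = 0.960). Mouse 5 alone set its sign, from 9.26 CPM in the control to 2.06 CPM in the Nrf2 eye, and without that mouse the log2 fold change was 0.39.

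Dhrs3 fell. It encodes a short-chain reductase that turns retinaldehyde back into retinol and so acts against retinoic acid synthesis, and its own expression is induced by retinoic acid in many tissues. Dhrs3 (ENSMUSG00000066026, mm10 chromosome 4, 144892827 to 144928209, plus strand) stood at 127, 93.6, 126, 163 and 98.8 CPM in the GFP eyes (mice 1 to 5). It stood at 93.7, 64.7, 85.1, 81.2 and 84.6 CPM in their Nrf2 eyes. Each Nrf2 eye was below its own control eye, and the ranges met only where the Nrf2 eye of mouse 1 (93.7 CPM) matched the control eye of mouse 2 (93.6 CPM). The means were 122 ± 27.8 and 81.9 ± 10.7 CPM (SD, n = 5), a log2 fold change of -0.57 (SE 0.13, edgeR adjusted p = 0.0429). The call was close to the threshold and was lost without any 1 of the 5 mice (adjusted p from 0.0669 without mouse 5 to 0.173 without mouse 2), without the mouse block (0.0936), and with the rod or the surface epithelium list as covariate (0.104 and 0.123). The log2 fold change stayed negative in each of these fits, from -0.41 to -0.63 without each mouse, -0.58 without the block, and -0.40 and -0.49 with the rod and the surface epithelium covariate. The fall stood beside a fall of the RPE marker sum in the same 5 mice, whose part in it was not tested.

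Per kilobase of exon, the 3 dehydrogenases together stood at 0.755 ± 0.290 times the level of Dhrs3 in control and 1.58 ± 0.486 times in Nrf2 eyes (SD, n = 5). The ratio was 0.755, 0.726, 0.716, 0.381 and 1.19 in the GFP eyes (mice 1 to 5), and 1.28, 1.85, 1.02, 1.48 and 2.26 in their Nrf2 eyes. It was higher in the Nrf2 eye of every mouse, although the groups overlapped through the control eye of mouse 5. The summed level of the 3 dehydrogenases alone was higher in 4 of 5 mice and lower in mouse 3, from 30.7 to 29.8 CPM per kb. In that mouse the higher ratio came from the lower Dhrs3. Among control eyes the surface epithelium sum was also highest in mouse 5 (56197 CPM) and lowest in mouse 4 (12796 CPM), and the RPE marker sum fell in the same 5 mice in which the ratio was higher. The part of these in the ratio was not tested. By the length of the longest transcript instead, the means were 0.941 and 1.97.

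The retinoic acid binding proteins and the CYP26 enzymes were scarce, and Crabp1 and Cyp26a1 lay at 0 or within a few counts of it in most libraries. Crabp2 (ENSMUSG00000004885, mm10 chromosome 3, 87948666 to 87953376, plus strand), which hands retinoic acid to its nuclear receptor, was 6.12, 1.91, 2.79, 2.75 and 2.86 CPM in the GFP eyes (mice 1 to 5). In the Nrf2 eyes it was 3.23, 11.96, 3.61, 2.93 and 6.37 CPM, highest in mouse 2. The ranges overlapped, and the log2 fold change was 0.63 (SE 0.58, edgeR adjusted p = 0.591). It was 0.20 without mouse 2 and 1.06 without mouse 1. Crabp1 (ENSMUSG00000032291, mm10 chromosome 9, 54764748 to 54773110, plus strand), a binding protein of retinal neurons among other cells, had 85 counts in all and was not tested. The control and the Nrf2 eye of mouse 2 held 17 and 54 of them. That mouse also had the highest sums of rod markers (17542 CPM in the control and 6782 CPM in the Nrf2 eye) and of inner retina neuron markers (622 and 662 CPM). The other 8 libraries held 0 to 7 counts each.

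Cyp26b1 (ENSMUSG00000063415, mm10 chromosome 6, 84571414 to 84593908, minus strand) was 1.84, 2.22, 0.908, 1.19 and 8.35 CPM in the GFP eyes (mice 1 to 5), and 5.24, 0.895, 0.715, 0.813 and 2.55 CPM in their Nrf2 eyes. It was lower in 4 of 5 mice and higher in mouse 1, with a log2 fold change of -0.53 (SE 0.54, edgeR adjusted p = 0.7001). Its highest libraries, the control eye of mouse 5 and the Nrf2 eye of mouse 1, were also those with the highest sums of surface epithelium markers (56197 and 42714 CPM). With the mean log2 CPM of these markers as a covariate, in place of their sum, the log2 fold change of Cyp26b1 was -0.59 (edgeR adjusted p = 0.731). It moved more with single mice, to -1.03 without mouse 1, -0.26 without mouse 2 and -0.14 without mouse 5. Cyp26a1 (ENSMUSG00000024987, mm10 chromosome 19, 37697798 to 37701536, plus strand), which retinoic acid induces strongly in many tissues, had 61 counts in all and was not tested. It had 8, 11, 0, 0 and 17 counts in the control eyes and 23, 0, 0, 0 and 2 counts in the Nrf2 eyes of mice 1 to 5. The groups overlapped, with 0 to 17 counts in control and 0 to 23 in Nrf2 libraries.

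**Figure D3:**
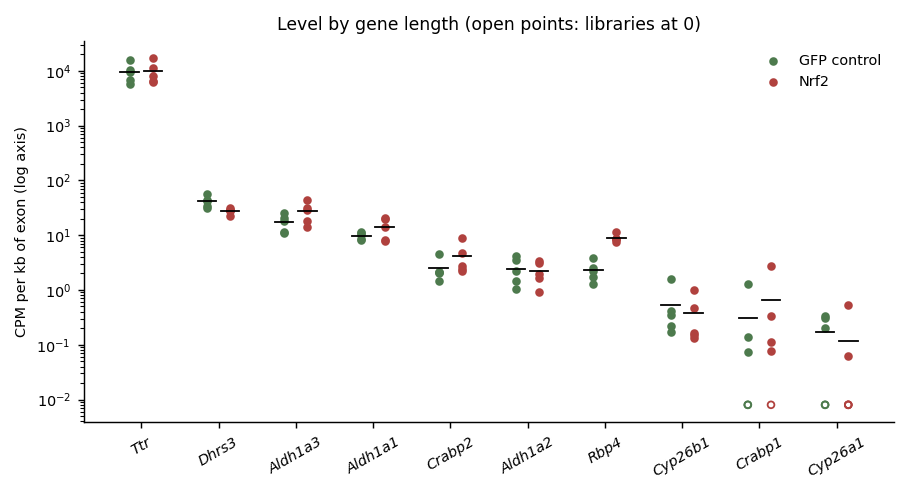
Level of the 10 genes in CPM per kilobase of exon (log axis) in each library, green for GFP control and red for Nrf2 eyes, ordered by the control mean, with black lines at the group means and open points for libraries at 0. Ttr stood at 9733 in control eyes, 234 times the next gene, and Rbp4 moved from 2.31 to 8.90.

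Per kilobase of exon, the control means followed the order Ttr (9733 CPM per kb), Dhrs3 (41.6), Aldh1a3 (17.4), Aldh1a1 (9.80), Crabp2 (2.49), Aldh1a2 (2.46), Rbp4 (2.31), Cyp26b1 (0.542), Crabp1 (0.303) and Cyp26a1 (0.172). Ttr and Dhrs3 were each separated from the next gene, with no overlap of control ranges, and so was Aldh1a1 from Crabp2. The other neighbours overlapped. In Nrf2 eyes Rbp4 averaged 8.90 ± 1.53 CPM per kb and no longer overlapped Aldh1a2 or Cyp26b1, and Dhrs3 (28.0 ± 3.64) overlapped Aldh1a3 (27.3 ± 11.9). Taking the longest transcript as the length moved the control level of Aldh1a1 to 20.5, close to that of Aldh1a3 at 23.3.

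The bases before both RefSeq starts of Rbp4, the gene that rose, are shown with those of Cyp26a1 and Rarb, which carry the retinoic acid response element known as DR5, a hexamer repeated in the same orientation after 5 bases. RefSeq windows of 250 bases upstream of a start were at hand for 7 of the 10 genes (11 windows, build GRCm38.p6). Of the Rbp4 windows, the outer precedes the gene and the inner lies within the gene span given above, before an inner start, and which start was used in these eyes was not measured. Capitals mark the letters TGAGTCA in the inner Rbp4 window, a single hexamer of the kind that DR5 repeats in the outer Rbp4 window, and the DR5 in the other genes. TGAGTCA is the core to which AP-1 binds and which lies within some antioxidant response elements, and it was searched after the inner Rbp4 window had been read. The windows run 5′ to 3′ on the strand of the gene.
Rbp4 outer start, chr19:38125322-38125571, minus strand: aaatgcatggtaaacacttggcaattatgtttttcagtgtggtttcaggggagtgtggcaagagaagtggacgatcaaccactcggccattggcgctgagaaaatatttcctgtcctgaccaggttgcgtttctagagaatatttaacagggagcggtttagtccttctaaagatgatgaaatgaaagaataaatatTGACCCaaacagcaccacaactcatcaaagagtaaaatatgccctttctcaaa
Rbp4 inner start, chr19:38124812-38125061, minus strand: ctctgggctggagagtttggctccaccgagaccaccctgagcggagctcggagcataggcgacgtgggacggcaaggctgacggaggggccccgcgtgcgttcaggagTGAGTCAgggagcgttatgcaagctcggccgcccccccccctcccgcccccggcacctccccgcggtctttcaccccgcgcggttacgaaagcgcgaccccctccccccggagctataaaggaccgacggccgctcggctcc
Cyp26a1, chr19:37697558-37697807, plus strand: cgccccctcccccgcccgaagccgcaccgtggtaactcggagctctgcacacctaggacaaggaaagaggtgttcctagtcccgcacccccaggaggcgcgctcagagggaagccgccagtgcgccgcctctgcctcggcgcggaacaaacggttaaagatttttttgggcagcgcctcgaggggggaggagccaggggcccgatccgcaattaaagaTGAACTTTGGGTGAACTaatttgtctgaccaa
Rarb, chr14:16575477-16575726, minus strand: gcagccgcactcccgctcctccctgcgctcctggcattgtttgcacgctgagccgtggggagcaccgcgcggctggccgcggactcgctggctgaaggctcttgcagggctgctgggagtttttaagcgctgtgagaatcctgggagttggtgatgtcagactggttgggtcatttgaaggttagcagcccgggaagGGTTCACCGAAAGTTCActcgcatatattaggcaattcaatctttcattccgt

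On both strands of the 32851 windows of this length, TGAGTCA was found in 4.46%, the antioxidant response element core TGACNNNGC in 10.2%, DR5 in 0.0883%, and the single hexamer in 38.6%. A TGAGTCA on the opposite strand can overlap a TGACNNNGC. Among the 11 windows of the 10 genes TGAGTCA was found in 2, in the inner Rbp4 window (bases 142 to 136 before the start) and in a window of Aldh1a1, and TGACNNNGC in 1, that of Aldh1a2. The outer window of Rbp4 and the 3 windows of Dhrs3 held neither of these, nor DR5. DR5 was found in Cyp26a1 (bases 32 to 16 before the start) and, among the other retinoid genes, in Rarb (bases 53 to 37), which encodes a retinoic acid receptor that is itself induced by retinoic acid. Rarb stood at 34.7, 29.2, 33.9, 30.8 and 21.4 CPM in the GFP eyes (mice 1 to 5) and at 15.4, 23.9, 40.3, 36.8 and 22.3 CPM in their Nrf2 eyes. The ranges overlapped, and the log2 fold change was -0.19 (SE 0.27, edgeR adjusted p = 0.729).

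Beyond the 10 genes, 53 other genes of retinoid handling were counted in 6 lists, some in more than 1 list. Of the 45 tested, 3 were higher, 6 were lower and 36 did not pass, with a median log2 fold change of 0.01. Across all 16362 tested genes 6.33% passed, 3.60% higher and 2.73% lower, with a median of -0.01. In the list of retinol uptake and storage 1 of 9 tested genes was higher and 2 were lower (median -0.12). Lrat, which esterifies retinol, fell from 1155 ± 333 to 272 ± 161 CPM (log2 fold change -2.26, SE 0.25, adjusted p = 0.00248). Stra6, the receptor for the plasma retinol-binding protein, was 1660, 1032, 1574, 1789 and 854 CPM in the GFP eyes (mice 1 to 5). It was 726, 438, 982, 582 and 465 CPM in their Nrf2 eyes, lower in each mouse, with ranges that overlapped only between the control eye of mouse 5 and the Nrf2 eye of mouse 3. The log2 fold change came to -1.14 (SE 0.16, edgeR adjusted p = 0.00838). The call of Stra6 was lost without the mouse block (adjusted p = 0.0628, log2 fold change -1.11). Lrat and Stra6 are expressed in the RPE, and the part of the lower RPE marker sum in their values was not tested. Lpl, lipoprotein lipase, rose from 95.3 ± 37.3 to 385 ± 73.3 CPM (log2 fold change 2.06, SE 0.32, adjusted p = 0.00414). Macrophages also express Lpl, and their marker sum rose in the same 5 mice, whose part in the value was not tested.

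**Figure D4:**
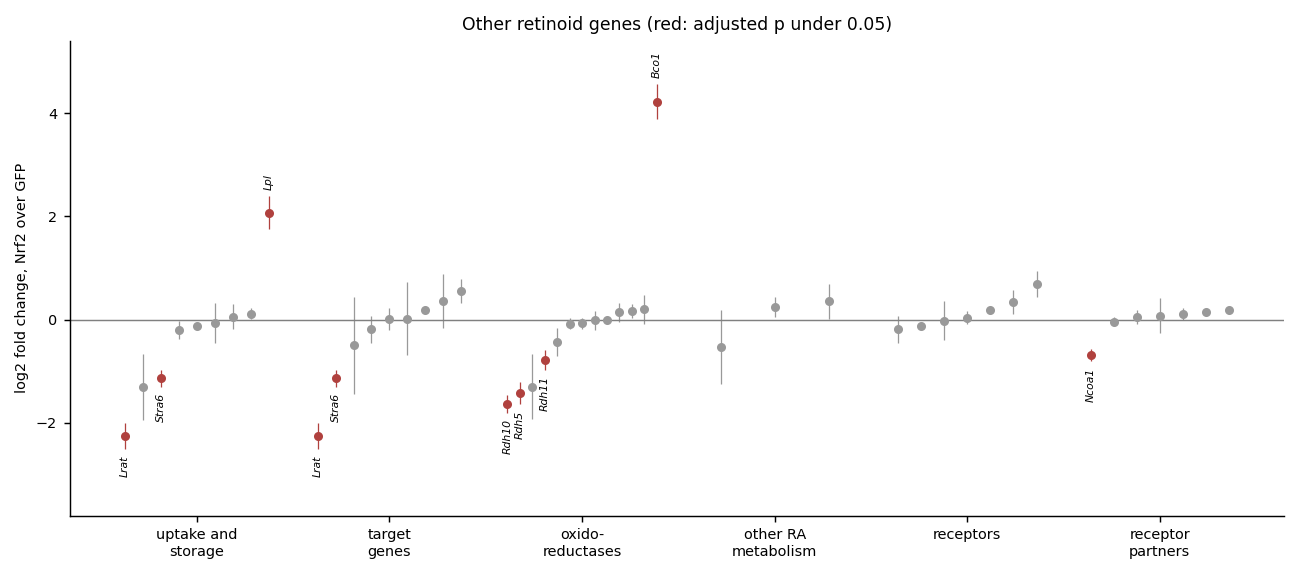
Log2 fold change of the other tested retinoid genes (points, with standard errors over 5 mice), by list, with red and a name at adjusted p under 0.05. Cyp1a1 is left out because its control libraries were at 0 counts in 4 of 5 mice, and Lrat and Stra6 appear both under uptake and storage and under target genes.

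Of 13 tested retinol and retinaldehyde oxidoreductases, 1 was higher and 3 were lower (median -0.07). DESeq2, with its own filter, called 2 higher and 4 lower, and 1803 of 20212 genes in all. The genes that fell were Rdh10, which in embryos supplies retinaldehyde for retinoic acid, with a log2 fold change of -1.63 (SE 0.17, edgeR adjusted p = 0.00295), Rdh5, the 11-cis-retinol dehydrogenase, with -1.42 (SE 0.22, adjusted p = 0.00987), and Rdh11 with -0.78 (SE 0.19, adjusted p = 0.0355). These falls too stood beside that of the RPE marker sum in the same 5 mice, whose part in them was not tested. The call of Rdh11 was lost in 6 of 13 alternative settings, among them without mouse 1, 2, 4 or 5 (adjusted p = 0.0892, 0.133, 0.111 and 0.0750, with log2 fold changes of -0.69, -0.69, -0.64 and -0.83). Bco1, which cleaves beta-carotene into retinaldehyde, rose. It stood at 1.12, 1.602, 0.838, 0.657 and 2.82 CPM in the GFP eyes (mice 1 to 5) and at 24.7, 24.2, 22.3, 26.4 and 25.4 CPM in their Nrf2 eyes. The groups lay far apart, and the Nrf2 eyes were nearly level (log2 fold change 4.22, SE 0.34, adjusted p = 0.000943). No TGAGTCA, TGACNNNGC or DR5 was found in its window.

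In the list of other makers, carriers and degraders of retinoic acid 1 of 4 tested genes was higher (median 0.30). Cyp1a1, a cytochrome P450 that can oxidise retinaldehyde and many foreign compounds, had 0, 0, 0, 4 and 0 counts in the GFP eyes (mice 1 to 5). It had 169, 408, 183, 157 and 124 counts in their Nrf2 eyes, or 6.88 to 16.6 CPM (edgeR adjusted p = 0.00153). Its fitted fold change depends on the prior count and is not given.

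None of the 7 receptor genes (the RAR and RXR families and Ppard) passed the test (median 0.04). By edgeR the count at an unadjusted p under 0.05 was also 0, and DESeq2 called 0. Rxra, the most abundant, was 97.6 ± 16.97 CPM in control and 111 ± 8.35 CPM in Nrf2 eyes (log2 fold change 0.18, SE 0.07, adjusted p = 0.407). Of 7 receptor partners, the coactivator Ncoa1 was lower, from 151 ± 23.8 to 94.3 ± 12.6 CPM (log2 fold change -0.69, SE 0.12, adjusted p = 0.0129), and 6 did not pass (median 0.07). The call was lost without mouse 2 or mouse 4 (adjusted p = 0.0586 and 0.0540) and with the rod list as covariate (0.0758), with log2 fold changes of -0.65, -0.63 and -0.66 in these fits. Among 9 tested genes known as targets of retinoic acid 2 were lower and 0 higher (median 0.01). These were Lrat and Stra6, the storage and uptake genes given above, which are RPE genes as well, and 7 did not pass, Rarres1 (0.36, SE 0.53, adjusted p = 0.7998) and Tgm2 (-0.49, SE 0.94, adjusted p = 0.835) among them.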

How the data were processed

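RNA was measured in both eyes of 5 mice. The authors aligned reads to mm10 with Ensembl release 91 using STAR, counted genes with featureCounts, and estimated counts with Salmon (0.8.2 in the submitters' processing notes). The deposited values were whole counts per gene, not normalized, and which counter made them is not given in the sources used here. Samples were sequenced in 2 runs, and which run held which library is not given there.

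The test was that of edgeR 4.0.16 under R 4.3.3 (quasi-likelihood, TMM, filterByExpr, mouse as block), with Benjamini-Hochberg adjustment over 16362 genes. The labels name the mouse of each eye, and after group means were removed the eyes of a mouse correlated at 0.19 to 0.71, against -0.42 to 0.28 (median -0.08) between eyes of different mice. CPM is counts over the library total, and an SE is over the 5 within-mouse log2 CPM differences (prior count 2). Gene positions and lengths came from GENCODE M21, which named 47310 of 47729 IDs. Libraries of a group all differed beyond counting noise (chi-square per degree of freedom at least 37.1). Depths gave a floor of 0.110 to 0.244 CPM, which covers counting error only.

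The genes and lists were chosen with earlier results of these data known, and the surface epithelium list after the values were seen. A further retinoid gene was left out of the lists and is not reported here. All 10 genes are named, with every gene of the lists so defined that passed and the most abundant gene of a list with none. RPE and macrophage markers named singly were chosen after their values were seen. Rarb was added for its DR5, and Rarres1 and Tgm2 as examples that did not pass. Alternatives were the fit without the block, DESeq2 1.42.0, RLE normalization, other count filters, marker covariates (the mean log2 CPM of a list) and leaving out each mouse.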

Additional observations from a re-analysis of the deposited data

Results flagged for a closer look

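In 34 sets of 5 eyes (a gene in a group), the most extreme library was set against the rest, and 1 was set apart, against about 1.7 by chance. The log2 CPM of Cyp1a1 in the GFP control eye of mouse 4 was -1.55 (0.239 CPM, from 4 counts), while the other control eyes were at 0 CPM. With the other 4 eyes at 0, any count above 0 would have stood out in this check, and 4 counts are near the floor of 3.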

How the results depend on the processing

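Rbp4 kept its call in 13 of 13 alternatives (log2 fold change 1.77 to 2.26), and Dhrs3 in 5 of 13 (-0.63 to -0.40). The number of the 10 genes called fell from 2 to 1 without the replicate block, with the rod or the surface epithelium list as covariate (the latter chosen after seeing the data), and ran from 1 to 2 when each mouse was left out. Over all tested genes 1036 were called, against 755 with no replicate block that pairs the eyes (687 of them shared), 1803 by DESeq2 (a run with its own filter, which gave 20212 genes an adjusted p, so that tool and filter changed together) and 468 with the rod list as covariate, and 584 to 857 without each mouse. Of the other retinoid genes 9 were called, and 7 to 11 under the alternatives. Values near 0 changed sign: Ttr with the fibroblast list as covariate (-0.0021) and, leaving out each mouse, between -0.13 and 0.30, and Aldh1a2 between -0.29 and 0.39. The cause of these shifts was not tested beyond the fewer samples in the fits that leave out a mouse. The low counts of Crabp1 and Cyp26a1 kept them out of the test.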
